A study of Mus musculus with 6 samples.

Results

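The genes described here encode the main families of axon guidance cues and their receptors: Eph receptors and ephrins, semaphorins with plexins and neuropilins, netrins with Dcc and the Unc5 receptors, and Slits with Robos. They were picked from the table by gene symbol, in families chosen with earlier results of these data known, and 70 of its 23999 rows matched. Of the 70, 63 had 10 or more counts in replicate 1 of either group, and 58 passed the filter on low counts and were tested.

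These proteins steer growing axons and migrating cells by attraction or repulsion, and outside the nervous system the same proteins act in cell sorting, tissue boundaries, blood vessels and epithelia. Ephrins are ligands anchored in the membrane that bind Eph receptor tyrosine kinases on neighbouring cells, so that signals can pass into both cells. Semaphorins signal through plexins, and most secreted class 3 members need a neuropilin as co-receptor. Netrins act through Dcc and Unc5 receptors, and Slits through Robo receptors.

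RNA-seq of mouse embryonic stem cells (ESCs), pluripotent cells grown in culture, was compared between 4OHT (n = 3) and vehicle (n = 3). By the labels every sample carried the floxed element named -5 and exogenous mNanogV5, a tagged extra copy of Nanog. The cells were plated at 200K per well and kept for 6 days with tamoxifen (4OHT), a ligand commonly used to switch on oestrogen receptor-fused Cre recombinases, or with ethanol. The labels name no Cre, no clone and no strain, and they do not say whether the replicates were separate cultures, so p-values measure only the spread between these samples.

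Nanog, the gene named in the series title, had 177, 172 and 194 CPM (depth-normalised counts, scaled with TMM factors) in the 4OHT libraries, against 631, 660 and 641 CPM in the vehicle libraries (edgeR adjusted p = 1.6e-13, log2 fold change -1.81). Reads of the extra copy may be counted under this symbol. The shallowest library, 4OHT replicate 2, held 515388 counts, and the deepest, 4OHT replicate 1, held 55194644. In 4OHT replicate 2, 1 count equals 1.91 CPM, 11 of the tested guidance genes had no count, and the highest guidance gene count was 95, for Epha2. A count of 0 there allows a level of up to 5.73 CPM (3 counts, counting error only). Levels of low genes in that library are therefore coarse, and the fitted fold changes follow 4OHT replicates 1 and 3 more closely than the means do. All 8 ESC markers were tested, and their summed level was 5443 to 5699 CPM in 4OHT cells and 5551 to 5712 CPM in vehicle cells. Of these 8, Sox2 rose (log2 fold change 0.18), Pou5f1 (-0.21) and Fgf4 (-0.30) fell, and the groups did not overlap for these 3 genes.

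After 4OHT, 29 of the 58 tested guidance genes changed at an adjusted p under 0.05 (edgeR's quasi-likelihood test, Benjamini-Hochberg adjustment over all 14458 tested genes). That is 50% of them, beside 22.4% of all tested genes. Of the 29, 20 rose, or 34.5% beside 11.9% of all tested genes, and 9 fell, or 15.5% beside 10.5%. Over the 58, the median log2 fold change (4OHT over vehicle) was 0.20, beside -0.0026 for all tested genes. Among the 37 guidance genes with a mean log2 CPM of 1 or more, 22 passed, or 59.5%, beside 23.5% of all tested genes at that level. All 8 guidance genes that changed at least 2-fold rose (13.8%, beside 1.88% of all tested genes that rose so far and 3.39% in either direction): Epha4, Slit2, Efnb2, Ephb6, Dcc, Sema3a, Sema3d and Sema6a. Of these 8, Dcc and Sema3a were above the low-count filter in every library of 4OHT only. They were tested because they were high there, so their direction adds nothing to this count or to that of the 20 rises. Sema3d was above the filter in every library of neither group.

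Of the 58 tested genes, 13 were not above the filter of 0.347 CPM in every library, and 6 of these 13 were called. Without the filter 69 guidance genes were fitted, and the same 29 were called.

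The 4OHT and vehicle libraries did not overlap for 28 of the 58 tested genes, or 48.3% beside 31.3% of all tested genes, and 23 of these 28 passed the test. For low genes, overlap can turn on 0 or 1 count in 4OHT replicate 2. Dcc had 1 count there and did not overlap, and Sema3d had 0 and did. DESeq2, which called 6.57% of all tested genes, called 8 of the guidance genes higher and 1 lower. These were Epha4, Ntn1, Slit2, Efnb2, Sema4b, Robo4, Epha2 and Unc5b, and Sema4d as the fall, and all 9 were called under each of the 13 alternatives. The other 20 calls were not made by DESeq2 with all libraries. Without 4OHT replicate 2, an alternative chosen after seeing the data, DESeq2 called 17 higher and 7 lower, beside 16.8% of all tested genes.

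Markers of other cell types were counted too, beside 22.4% of all tested genes called in either direction. Lists other than primitive endoderm had few tested genes, and their counts are not read as a result. Of 14 markers of primitive endoderm, an extraembryonic lineage of the early embryo, 12 rose and 0 fell, with a summed level of 753 to 772 CPM in 4OHT cells and 588 to 593 CPM in vehicle cells. Much of that sum is Sparc, Lama1, Lamb1 and Col4a1, and several lower members changed by more. The fitted change was 37.7-fold for Cubn, 16.6-fold for Gata6, 11.6-fold for Sox17, 8.97-fold for Pdgfra, 5.77-fold for Gata4 and 5.22-fold for Dab2, markers named after their values were seen. Sox7, also low, rose only 1.57-fold. Sox17, Gata4 and Sox7 had no count in 4OHT replicate 2, and their groups overlapped. Sparc and Amn did not pass. Of 7 tested neural markers 1 rose and 2 fell, with sums of 95.5 to 99.5 CPM in 4OHT cells and 152 to 158 CPM in vehicle cells, and Dcx, a marker of young neurons, had no count in any library. Tubb3 makes up most of the neural sums, at a mean of 71.8 CPM in 4OHT cells and 113 CPM in vehicle cells. Tubb3 and Ncam1 were the falls, and Sox1 was the rise (log2 fold change 0.69). Of 4 tested endothelial markers 2 rose and 0 fell, with sums of 36.3 to 41.6 CPM in 4OHT cells and 37.9 to 40.6 CPM in vehicle cells. There were 1 rise and 1 fall among 4 mesendoderm markers, 2 rises and 3 falls among 5 trophoblast markers, and 0 rises and 1 fall among 4 tested fibroblast or feeder cell markers. Postn, also on that last list, had no count in any library and was not tested. The part of these cell types in the guidance gene changes was not tested, and in bulk RNA fewer cells of a type and less RNA per cell cannot be told apart.

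**Figure D1:**
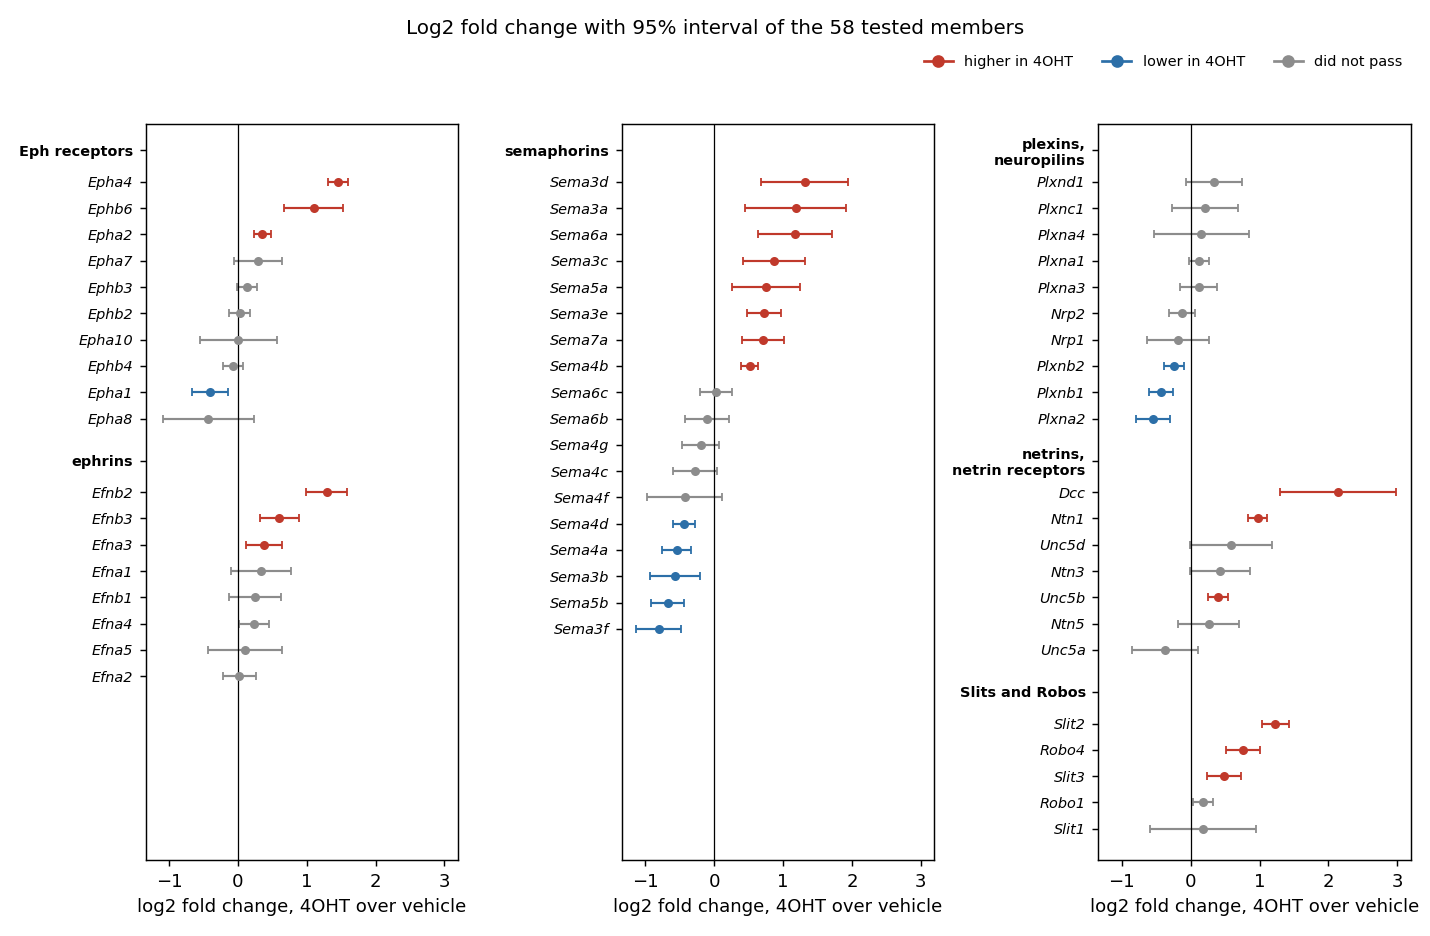
Log2 fold change (4OHT over vehicle, horizontal axis) with its 95% interval for each of the 58 tested guidance genes, grouped by family and ordered by fold change. The 20 genes in red rose and the 9 in blue fell; every called plexin lies left of 0, and every called ephrin, netrin, netrin receptor, Slit and Robo lies right of it.

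The promoters of 4 guidance genes are printed, chosen by size of change and level: the 3 genes that rose at least 2-fold with a mean log2 CPM of 2 or more, and Sema5b, the largest fall at that level. The groups overlapped for Sema5b, and DESeq2 did not call it. Each run is the 250 bases before the RefSeq transcription start (GRCm38.p6), read 5′ to 3′ on the gene's strand, with the GC box letters GGGCGG or CCGCCC in capitals.
Epha4 promoter, chr1:77515089-77515338, minus strand: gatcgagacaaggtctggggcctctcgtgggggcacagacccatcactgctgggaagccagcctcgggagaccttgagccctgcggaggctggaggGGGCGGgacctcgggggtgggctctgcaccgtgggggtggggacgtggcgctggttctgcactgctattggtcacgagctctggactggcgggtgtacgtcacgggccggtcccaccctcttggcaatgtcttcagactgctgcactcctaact
Slit2 promoter, chr5:47982905-47983154, plus strand: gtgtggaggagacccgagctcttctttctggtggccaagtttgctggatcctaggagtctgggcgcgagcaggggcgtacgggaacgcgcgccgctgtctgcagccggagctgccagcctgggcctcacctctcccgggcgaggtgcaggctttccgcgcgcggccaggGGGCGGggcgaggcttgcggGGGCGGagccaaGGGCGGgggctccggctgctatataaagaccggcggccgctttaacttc
Efnb2 promoter, chr8:8661243-8661492, minus strand: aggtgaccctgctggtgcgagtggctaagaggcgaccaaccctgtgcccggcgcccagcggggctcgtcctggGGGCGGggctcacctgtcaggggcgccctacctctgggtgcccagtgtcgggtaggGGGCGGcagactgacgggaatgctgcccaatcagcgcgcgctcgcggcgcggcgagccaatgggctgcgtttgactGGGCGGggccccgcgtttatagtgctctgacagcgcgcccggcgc
Sema5b promoter, chr16:35541112-35541361, plus strand: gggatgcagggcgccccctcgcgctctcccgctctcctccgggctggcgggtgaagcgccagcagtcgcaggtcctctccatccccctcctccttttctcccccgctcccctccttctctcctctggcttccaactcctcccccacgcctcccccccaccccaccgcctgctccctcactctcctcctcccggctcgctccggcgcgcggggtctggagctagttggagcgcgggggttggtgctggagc

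The GC box letters were found 1 time before Epha4, 3 times before Slit2, 3 times before Efnb2 and 0 times before Sema5b. Their GC contents were 66%, 69.6%, 72% and 72%, with 14, 25, 27 and 19 CpG dinucleotides, against medians of 52.4% and 6 over all 32851 promoters in the RefSeq table. The TATA box letters TATAAA, searched on both strands, were found 1 time each before Slit2 and Efnb2 and not before Epha4 or Sema5b. No match of one motif shared a base with a match of another in these 4 sequences. RefSeq promoters matched 59 of the 70 symbols, with 75 start sites. The GC box letters were in 70.7% of these 75, in 57.2% of the promoters of tested genes and in 32.7% of all promoters. The TATA box letters were in 2.67% of the 75, in 6.26% of the promoters of tested genes and in 12.4% of all promoters, and the octamer ATGCAAAT was in 0 of the 75, in 1.22% and in 1.6%. A match is a description of the letters and not a bound site.

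Among the Eph receptors, 3 of 10 tested genes rose, 1 fell and 6 did not pass, or 40% called beside 22.4% of all tested genes. Epha2 had the highest level per exon length of all guidance genes, with a mean of 42.1 ± 2.90 RPKM in 4OHT cells and 33.8 ± 0.898 RPKM in vehicle cells (CPM per kilobase of exon, SD, n = 3 each). Epha4, a receptor that binds both ephrin classes, had 85.7, 68.7 and 81.5 CPM in 4OHT cells, against 30.1, 28.9 and 31.8 CPM in vehicle cells. Every 4OHT library lay above every vehicle library, and even the lowest 4OHT value was over 2-fold the highest vehicle value. The change was 2.73-fold (log2 fold change 1.45, edgeR adjusted p = 1.04e-11, SE 0.07, 95% interval 1.31 to 1.59), the smallest adjusted p of all guidance genes.

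Epha2, a receptor for ephrin-A ligands known from epithelia and early embryo cells, had 202, 181 and 207 CPM in 4OHT cells, against 163, 155 and 156 CPM in vehicle cells. The groups did not overlap, and the rise was small beside that of Epha4 (log2 fold change 0.35, edgeR adjusted p = 0.000163, SE 0.06, 95% interval 0.23 to 0.48). Ephb6, a receptor whose kinase domain is inactive, had 2.61, 9.55 and 2.68 CPM in 4OHT cells, against 1.32, 1.34 and 1.10 CPM in vehicle cells. The 9.55 CPM rests on 5 counts in the shallow library, and the other 4OHT libraries were also above all vehicle libraries. Its log2 fold change was 1.10 (edgeR adjusted p = 0.000508, SE 0.21, 95% interval 0.67 to 1.53). The call was lost in DESeq2 (adjusted p = 0.0722) and in voom with quantile normalization (0.083), within 1.05e-06 to 0.083 over all alternatives.

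Epha1, the founding member of the Eph family, was the only Eph receptor among the falls. It had 4.70, 5.73 and 4.51 CPM in 4OHT cells, against 5.99, 5.53 and 6.81 CPM in vehicle cells. The groups overlapped through 4OHT replicate 2, where 3 counts gave 5.73 CPM. The log2 fold change was -0.40 (edgeR adjusted p = 0.0248, SE 0.13, 95% interval -0.67 to -0.14). The call was lost without vehicle replicate 1 (adjusted p = 0.0523) and without vehicle replicate 3 (adjusted p = 0.129), within a range of 0.00645 to 0.668 over all alternatives. Of its exon bases 6.0% overlap Zyx on the opposite strand, and the sources used here do not state whether counting used strand.

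The other Eph receptors did not pass. Ephb4, the receptor of ephrin-B2 in veins, had 28.9, 24.8 and 28.6 CPM in 4OHT cells, against 31.5, 28.9 and 29.4 CPM in vehicle cells (log2 fold change -0.07, 95% interval -0.22 to 0.08). Ephb3, a receptor that positions cells in the intestinal crypt, averaged 35.0 ± 0.66 CPM in 4OHT cells and 32.2 ± 0.177 CPM in vehicle cells (log2 fold change 0.13, 95% interval -0.0073 to 0.27). For Ephb2 the log2 fold change was 0.03 (95% interval -0.13 to 0.18). Epha7, Epha8 and Epha10 were low, with means under 3 CPM in both groups and log2 fold changes of 0.29, -0.43 and 0.0041. Without 4OHT replicate 1, Epha8 was called lower (log2 fold change -1.28, edgeR adjusted p = 0.0384, within 0.0384 to 0.925 over all alternatives). Ephb1, Epha3, Epha5 and Epha6 were not tested. Ephb1 had at most 0.365 CPM, in 4OHT replicate 1, and reached a log2 fold change of 1.39 with an edgeR adjusted p of 0.051 when the filter was 10 counts in replicate 1 of either group.

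Summed over the EphA receptors, the level was 55.7, 49.0 and 56.0 RPKM in 4OHT cells, against 40.6, 38.8 and 39.6 RPKM in vehicle cells. Epha2 made up 77.6% to 79.2% of that sum in 4OHT cells and 84.4% to 85.8% in vehicle cells. The EphB receptor sum was 14.4 ± 0.235 RPKM in 4OHT cells and 13.7 ± 0.346 RPKM in vehicle cells (SD, n = 3 each), with Ephb4 the highest member. These sums are descriptions and were not tested.

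**Figure D2:**
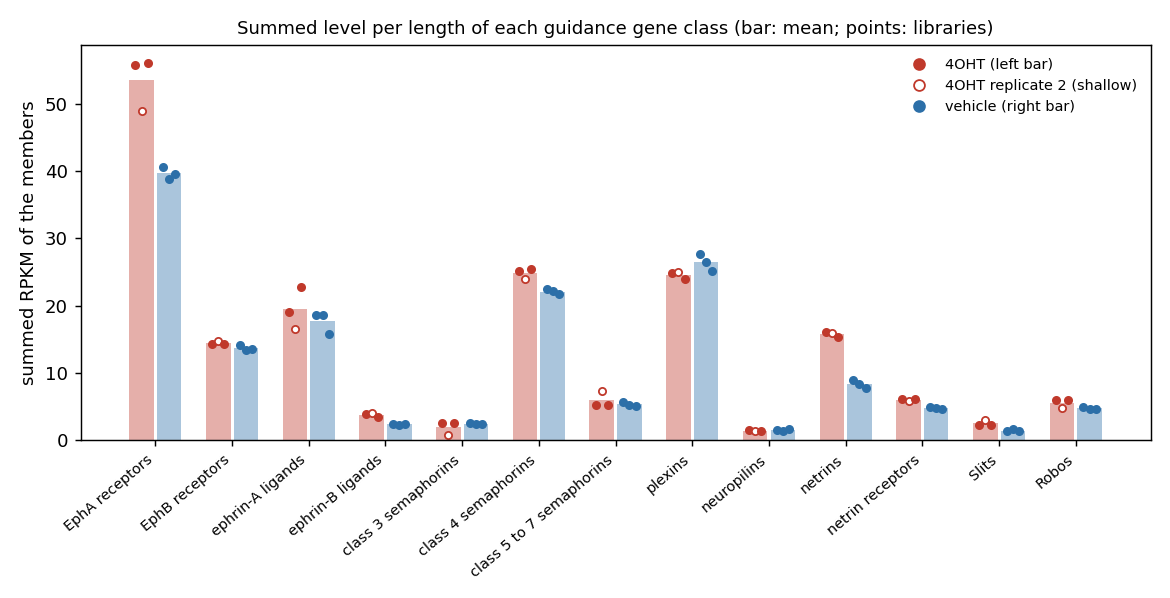
Summed RPKM of each class of guidance genes (vertical axis), with bars for the group mean and points for the libraries (4OHT left in red, vehicle right in blue, open points for 4OHT replicate 2). The largest gap in RPKM is that of the EphA receptors, at a mean of 53.6 in 4OHT cells and 39.7 in vehicle cells, and the plexins are the class with the higher bar in vehicle cells by the widest margin, at 24.5 in 4OHT cells and 26.4 in vehicle cells.

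Of the 8 ephrins, all tested, 3 rose and 0 fell, or 37.5% called beside 22.4% of all tested genes. Efnb2, the transmembrane ligand ephrin-B2 known as a marker of arteries, had 6.58, 3.82 and 6.27 CPM in 4OHT cells, against 2.65, 2.04 and 3.05 CPM in vehicle cells. The groups did not overlap, although the 3.82 CPM of 4OHT replicate 2 rests on 2 counts. The log2 fold change was 1.29 (edgeR adjusted p = 1.27e-06, SE 0.14, 95% interval 0.99 to 1.59), or 2.44-fold. Its promoter, printed above, holds 3 of the GC box matches.

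Efnb3, ephrin-B3, a barrier cue at the spinal cord midline, rose with a log2 fold change of 0.60, and its groups did not overlap (6.18, 7.64 and 5.71 CPM in 4OHT cells, against 4.16, 3.14 and 4.30 CPM in vehicle cells). Its edgeR adjusted p was 0.00257. DESeq2 did not call Efnb3 (adjusted p = 0.284, within 0.000245 to 0.284 over all alternatives). The summed ephrin-B level was 3.90, 4.06 and 3.48 RPKM in 4OHT cells, against 2.41, 2.29 and 2.42 RPKM in vehicle cells. Efna3, a ligand held by a lipid anchor like all ephrin-A proteins, rose with a log2 fold change of 0.38 (edgeR adjusted p = 0.0357). Its libraries overlapped, at 9.50, 13.4 and 12.7 CPM in 4OHT cells, against 8.35, 9.71 and 7.58 CPM in vehicle cells. The call was lost in 4 of the 6 fits without 1 library: without 4OHT replicate 2 (adjusted p = 0.0749), 4OHT replicate 3 (0.282), vehicle replicate 1 (0.0996) or vehicle replicate 3 (0.137). Over all alternatives its adjusted p ran from 3.4e-05 to 0.492, and 14.1% of its exon bases overlap a gene on the opposite strand.

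Efna4 had the highest level per length of the ephrins, at 9.22 ± 2.87 RPKM in 4OHT cells and 9.02 ± 1.06 RPKM in vehicle cells (SD, n = 3 each). It had 16.4, 9.55 and 18.3 CPM in 4OHT cells, against 15.8, 14.9 and 12.5 CPM in vehicle cells, and the groups overlapped. It did not pass (log2 fold change 0.24, SE 0.10, edgeR adjusted p = 0.112), but passed with the replicate number as a block (adjusted p = 0.0388), within 0.0219 to 0.867 over all alternatives; 10.5% of its exon bases overlap a gene on the opposite strand. Efna1, Efna2, Efna5 and Efnb1 did not pass, with log2 fold changes of 0.34, 0.02, 0.10 and 0.25.

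Of 18 tested semaphorins, 8 rose, 5 fell and 5 did not pass, or 72.2% called beside 22.4% of all tested genes. DESeq2, which called 6.57% of all tested genes, called 1 semaphorin higher and 1 lower. Both directions occurred within class 3, class 4 and class 5, and the only calls in class 6 (Sema6a) and class 7 (Sema7a) were rises. All 6 tested class 3 genes, which encode secreted proteins, changed, with 4 rises and 2 falls. Sema3a was tested only because it was high in 4OHT cells, so its rise adds nothing to these 4 or to the 8 above. Of 6 class 4 genes 1 rose and 2 fell, and of 6 tested class 5 to 7 genes 3 rose and 1 fell.

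Among class 3 genes, Sema3e, which signals through plexin D1 and needs no neuropilin for it, had 11.4, 3.82 and 10.5 CPM in 4OHT cells, against 7.09, 5.73 and 6.70 CPM in vehicle cells. The groups overlapped through 4OHT replicate 2, where 2 counts gave 3.82 CPM, and the other 4OHT libraries lay above all vehicle libraries. Its log2 fold change was 0.72 (edgeR adjusted p = 0.000131, SE 0.12, 95% interval 0.47 to 0.96). DESeq2 (adjusted p = 0.2) and voom with quantile normalization (0.0512) did not call Sema3e, within 7.72e-08 to 0.2 over all alternatives. Sema3f, a repellent that acts through neuropilin-2, had 2.43, 0 and 2.32 CPM in 4OHT cells, against 4.06, 4.08 and 4.30 CPM in vehicle cells. The 0 in the shallow library does not separate the groups at that depth, and 4OHT replicates 1 and 3 also lay below all vehicle libraries. The fall was -0.81 on the log2 scale (edgeR adjusted p = 0.000635, SE 0.16, 95% interval -1.13 to -0.49), the largest among the guidance genes that fell. DESeq2 (adjusted p = 0.314) and voom with quantile normalization (0.0581) did not call Sema3f, within 1.98e-05 to 0.314 over all alternatives.

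Sema3b, a secreted semaphorin studied as a candidate tumour suppressor in human cells, had 2.08, 0 and 2.42 CPM in 4OHT cells, against 3.31, 3.73 and 2.86 CPM in vehicle cells. Its log2 fold change was -0.58 (edgeR adjusted p = 0.0204, SE 0.17, 95% interval -0.94 to -0.21). The call was lost without 4OHT replicate 1 (adjusted p = 0.108), vehicle replicate 1 (0.0613) or vehicle replicate 2 (0.0726), within 0.00541 to 0.675 over all alternatives.

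The other class 3 rises were of low genes. Sema3a, the prototype of growth cone collapse through neuropilin-1, rose by 1.18 on the log2 scale. It had 0.731, 1.91 and 0.424 CPM in 4OHT cells, against 0.265, 0.249 and 0.305 CPM in vehicle cells, where the 1.91 CPM is 1 count. Its vehicle libraries lay under the filter of 0.347 CPM, so it was tested through its 4OHT libraries. The call was lost without 4OHT replicate 1 (adjusted p = 0.354) or vehicle replicate 1 (0.0943), within 0.00288 to 0.621 over all alternatives. Sema3d rose by 1.31 (0.968, 0 and 0.751 CPM in 4OHT cells, against 0.416, 0.299 and 0.267 CPM in vehicle cells), and its call was lost without 4OHT replicate 1 (adjusted p = 0.0668; 0.000798 to 0.72 over all alternatives). Sema3c, needed for the cardiac outflow tract, rose by 0.87 (1.79, 1.91 and 1.99 CPM in 4OHT cells, against 0.832, 1.24 and 1.18 CPM in vehicle cells). Its call was lost without vehicle replicate 1 (adjusted p = 0.0922; 0.000939 to 0.594 over all alternatives).

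Among class 4 genes, which encode transmembrane proteins, Sema4b had the highest level per length of all semaphorins, at 18.1 ± 0.470 RPKM in 4OHT cells and 12.9 ± 0.351 RPKM in vehicle cells (SD, n = 3 each). It had 103, 99.3 and 104 CPM in 4OHT cells, against 72.4, 74.6 and 70.6 CPM in vehicle cells. The groups were far apart relative to the spread within each. Its log2 fold change was 0.51 (edgeR adjusted p = 1.69e-06, SE 0.06, 95% interval 0.39 to 0.64). Its share of the summed class 4 RPKM was 72.4% to 73.6% in 4OHT cells and 57.4% to 59.5% in vehicle cells.

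Sema4d, the ligand of plexin B1 and known also from immune cells, had 28.2, 15.3 and 29.5 CPM in 4OHT cells, against 38.6, 37.5 and 39.9 CPM in vehicle cells. Every 4OHT library was below every vehicle library. The log2 fold change was -0.44 (edgeR adjusted p = 0.000271, SE 0.08, 95% interval -0.61 to -0.28). Sema4a, a relative known from immune cells and the retina, had 8.73, 7.64 and 9.73 CPM in 4OHT cells, against 14.3, 12.4 and 12.9 CPM in vehicle cells, also without overlap. The fitted log2 change was -0.54 (edgeR adjusted p = 0.000446, SE 0.10, 95% interval -0.75 to -0.33). DESeq2 did not call Sema4a (adjusted p = 0.116, within 3.82e-07 to 0.116 over all alternatives). Sema4c, Sema4f and Sema4g did not pass, with log2 fold changes of -0.28, -0.43 and -0.20.

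In classes 5 to 7, Sema5b, a transmembrane semaphorin with thrombospondin repeats, had 8.48, 13.4 and 7.15 CPM in 4OHT cells, against 14.1, 12.1 and 11.7 CPM in vehicle cells. The groups overlapped through 4OHT replicate 2, where 7 counts gave 13.4 CPM. On the log2 scale the change was -0.68 (edgeR adjusted p = 0.000191, SE 0.12, 95% interval -0.92 to -0.44). DESeq2 did not call it (adjusted p = 0.101, within 2.5e-09 to 0.101 over all alternatives). Sema5a, the other class 5 gene, went the other way, with a log2 fold change of 0.75 (1.24, 0 and 1.57 CPM in 4OHT cells, against 0.756, 0.797 and 0.914 CPM in vehicle cells). Its call was lost without 4OHT replicate 3 (adjusted p = 0.115), vehicle replicate 1 (0.145) or vehicle replicate 2 (0.0700), within 0.0202 to 0.884 over all alternatives.

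Sema7a, a semaphorin held by a lipid anchor that binds integrins and plexin C1, rose by 0.70 without overlap (4.57, 3.82 and 3.95 CPM in 4OHT cells, against 2.63, 2.89 and 2.44 CPM in vehicle cells). Sema6a, a transmembrane ligand of class A plexins, rose by 1.17 (1.32, 3.82 and 1.37 CPM in 4OHT cells, against 0.624, 0.398 and 0.723 CPM in vehicle cells), where the 3.82 CPM is 2 counts. The edgeR adjusted p was 0.00124 for Sema7a and 0.00206 for Sema6a. DESeq2 called neither Sema7a (adjusted p = 0.383) nor Sema6a (0.252). Sema6b and Sema6c did not pass (log2 fold changes -0.10 and 0.03), and Sema3g and Sema6d were not tested.

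Of the semaphorin receptors, 10 plexins and neuropilins were tested, of which 0 rose, 3 fell and 7 did not pass. That is 30% called, near the 22.4% of all tested genes, and DESeq2 called 0 of them. Plexins carry a domain that inactivates small GTPases inside the cell. Plxnb1, the receptor of Sema4d, had 21.5, 17.2 and 19.9 CPM in 4OHT cells, against 29.2, 25.4 and 28.7 CPM in vehicle cells. All 4OHT values lay below all vehicle values. The fitted log2 change was -0.43 (edgeR adjusted p = 0.000522, SE 0.08, 95% interval -0.60 to -0.26). DESeq2 did not call it (adjusted p = 0.0569, within 2.76e-08 to 0.0569 over all alternatives). Plxna2, a receptor of class 6 semaphorins, had 6.21, 1.91 and 5.52 CPM in 4OHT cells, against 8.81, 8.56 and 8.26 CPM in vehicle cells. The groups did not overlap, and the 1.91 CPM is 1 count. The log2 fold change was -0.55 (edgeR adjusted p = 0.00164, SE 0.12, 95% interval -0.79 to -0.31). DESeq2 (adjusted p = 0.294) and voom with quantile normalization (0.0942) did not call Plxna2, within 6.52e-05 to 0.294 over all alternatives.

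Plxnb2, a receptor of class 4 semaphorins, had the highest level per length of the plexins, at 11.1 ± 0.679 RPKM in 4OHT cells and 13.4 ± 1.09 RPKM in vehicle cells (SD, n = 3 each). It had 91.9, 82.1 and 83.7 CPM in 4OHT cells, against 107, 109 and 93.5 CPM in vehicle cells, without overlap. The fall was small, at -0.24 (edgeR adjusted p = 0.0186, SE 0.07, 95% interval -0.38 to -0.091). The call was lost without vehicle replicate 1 (adjusted p = 0.0583) or vehicle replicate 2 (0.0835), within 0.00013 to 0.149 over all alternatives.

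Plxna1, a co-receptor of class 3 semaphorins, averaged 91.1 ± 13.7 CPM in 4OHT cells and 77.8 ± 4.67 CPM in vehicle cells and did not pass (log2 fold change 0.12, 95% interval -0.026 to 0.26). Of its exon bases 10.7% overlap a gene on the opposite strand. Nrp1 and Nrp2, the neuropilins, had log2 fold changes of -0.19 (95% interval -0.64 to 0.26) and -0.13 (95% interval -0.32 to 0.059). Plxnd1, the receptor of Sema3e, had a log2 fold change of 0.34 (95% interval -0.067 to 0.75). Plxna3, Plxna4 and Plxnc1 did not pass either, with log2 fold changes of 0.12, 0.15 and 0.21. Plxnb3 and the antisense RNA Plxna4os1, which had no count in any library, were not tested.

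**Figure D3:**
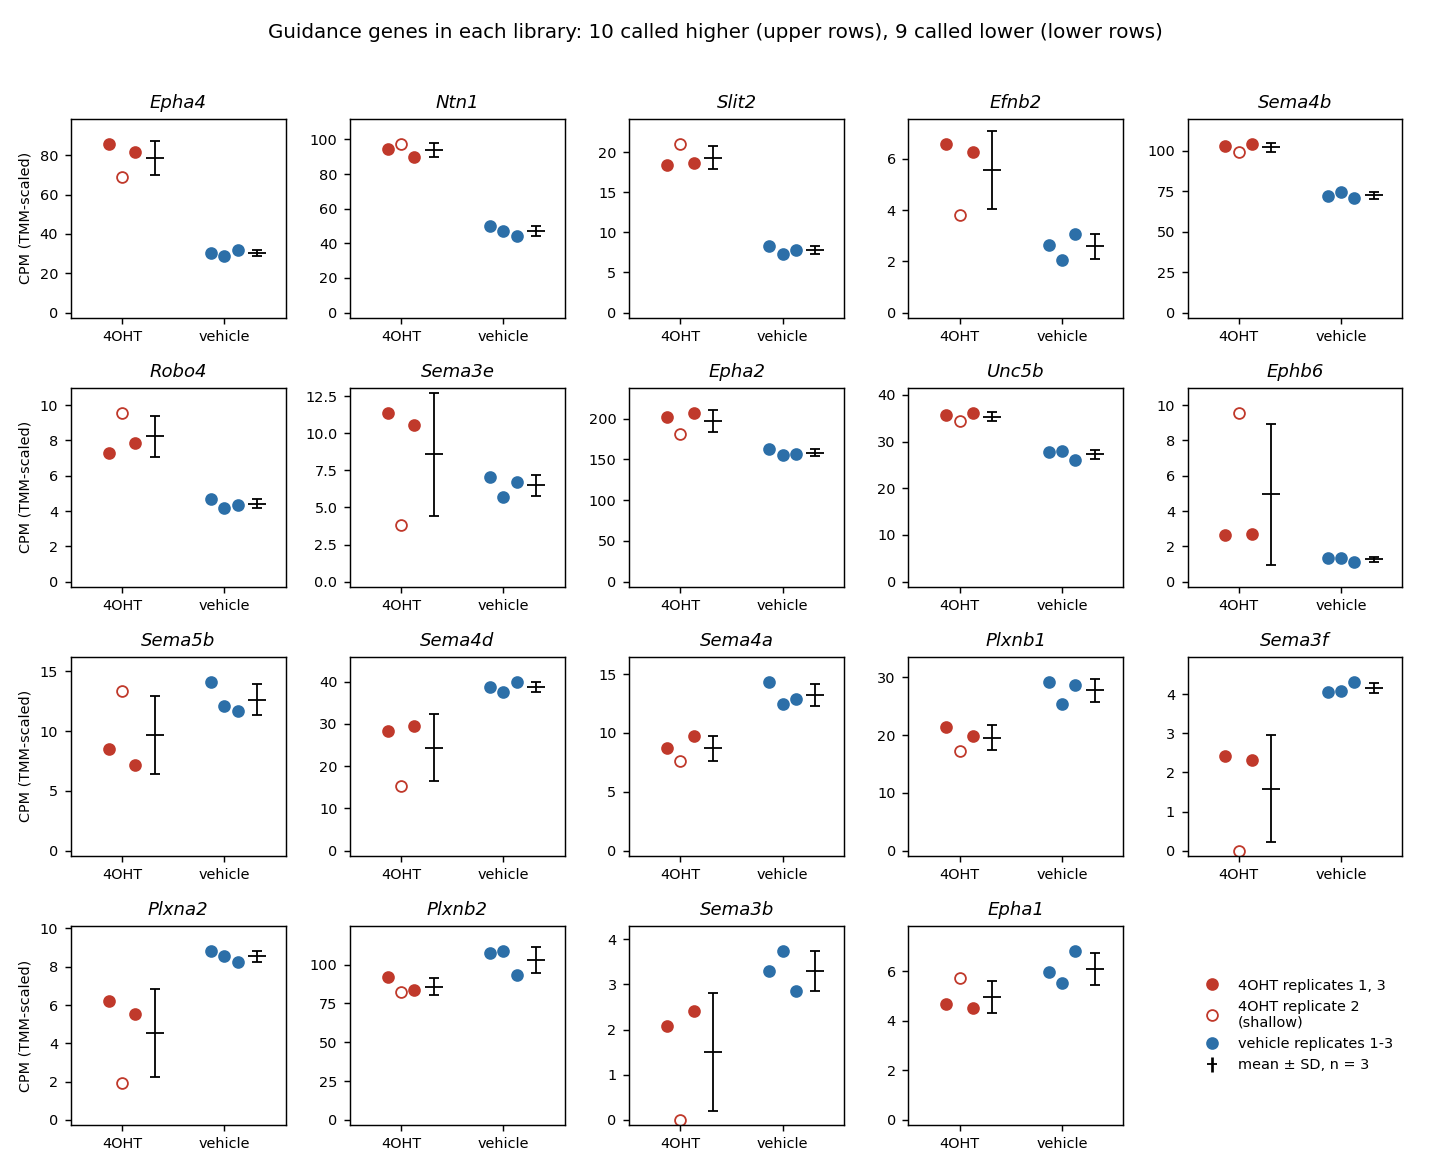
CPM (TMM-scaled, vertical axis of each panel) in each library for the 10 guidance genes with the smallest adjusted p among those that rose and the 9 that fell, with 4OHT left in red, vehicle right in blue and the mean ± SD (n = 3) beside each group. Open points are 4OHT replicate 2, which lies apart from its group for several low genes, for example at 9.55 CPM for Ephb6 and at 0 for Sema3b and Sema3f.

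Netrins and their receptors had 3 rises and 0 falls among 7 tested genes, or 42.9% called beside 22.4% of all tested genes. Of the 3 rises, that of Dcc adds nothing to this count, as Dcc was tested only because it was high in 4OHT cells. Ntn1, netrin-1, a secreted cue that attracts axons through Dcc and repels them through Unc5 receptors, had 94.5, 97.4 and 89.8 CPM in 4OHT cells, against 50.1, 46.9 and 44.1 CPM in vehicle cells. All 3 libraries of 4OHT cells were far above all 3 of vehicle cells, the shallow one included. The change was 1.96-fold (log2 fold change 0.97, edgeR adjusted p = 1.2e-09, SE 0.07, 95% interval 0.84 to 1.11). Per length it was the highest of its family, at 15.0 ± 0.608 RPKM in 4OHT cells and 7.49 ± 0.476 RPKM in vehicle cells (SD, n = 3 each).

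Unc5b, a netrin receptor also known from blood vessels, had 35.6, 34.4 and 36.1 CPM in 4OHT cells, against 27.7, 28.0 and 26.1 CPM in vehicle cells. The groups did not overlap. On the log2 scale the change was 0.39 (edgeR adjusted p = 0.000279, SE 0.07, 95% interval 0.25 to 0.54). Unc5b made up 93.5% to 94.0% of the summed RPKM of netrin receptors in 4OHT cells and 90.8% to 93.5% in vehicle cells.

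Dcc, the attractive netrin receptor, rose with a log2 fold change of 2.14 (SE 0.40, edgeR adjusted p = 0.000523), the largest fold of all guidance genes, but from few counts, and DESeq2 did not call it (adjusted p = 0.172, within 9.82e-05 to 0.172 over all alternatives). It had 30, 1 and 16 counts in 4OHT cells, against 6, 2 and 4 counts in vehicle cells, or 0.548, 1.91 and 0.522 CPM in 4OHT cells, against 0.113, 0.0996 and 0.152 CPM in vehicle cells. Its vehicle libraries were under the filter of 0.347 CPM, so it was tested through its 4OHT libraries. Per length Dcc lay far below Ntn1, at 0.0754 ± 0.0602 RPKM in 4OHT cells and 0.00924 ± 0.00208 RPKM in vehicle cells. Ntn3, Ntn5, Unc5a and Unc5d did not pass (log2 fold changes 0.43, 0.26, -0.37 and 0.58), and 23.4% of the exon bases of Ntn5 overlap Sec1 on the opposite strand. Ntn4 and Unc5c were not tested.

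Of 5 tested Slits and Robos, 3 rose and 0 fell, or 60% called beside 22.4% of all tested genes. Slit2, a secreted repellent and Robo ligand, had 18.3, 21.0 and 18.6 CPM in 4OHT cells, against 8.30, 7.32 and 7.84 CPM in vehicle cells. The lowest 4OHT value was over 2-fold the highest vehicle value. The log2 fold change was 1.23 (edgeR adjusted p = 5.16e-09, SE 0.09, 95% interval 1.04 to 1.42), or 2.35-fold. Slit3, a related ligand, rose by 0.48 on the log2 scale, also without overlap (8.72, 13.4 and 8.68 CPM in 4OHT cells, against 5.93, 7.42 and 5.83 CPM in vehicle cells). Its edgeR adjusted p was 0.00582, and the 13.4 CPM rests on 7 counts. DESeq2 did not call Slit3 (adjusted p = 0.344, within 2.97e-05 to 0.344 over all alternatives).

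Robo4, a family member known from endothelium, had 7.27, 9.55 and 7.87 CPM in 4OHT cells, against 4.69, 4.18 and 4.34 CPM in vehicle cells, without overlap. The fitted log2 change was 0.76 (edgeR adjusted p = 6.57e-05, SE 0.12, 95% interval 0.52 to 1.01). Robo1, the main Slit receptor per length here at 4.00 ± 0.864 RPKM in 4OHT cells and 3.89 ± 0.124 RPKM in vehicle cells (SD, n = 3 each), had 75.7, 49.6 and 72.7 CPM in 4OHT cells, against 66.4, 62.5 and 63.5 CPM in vehicle cells. The groups overlapped through 4OHT replicate 2. It did not pass (log2 fold change 0.18, SE 0.07, edgeR adjusted p = 0.0673), but passed with the replicate number as a block (adjusted p = 0.0252), within 0.0177 to 0.718 over all alternatives. Slit1 did not pass (log2 fold change 0.18, 95% interval -0.59 to 0.95), and Robo2 and Robo3 were not tested.

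**Figure D4:**
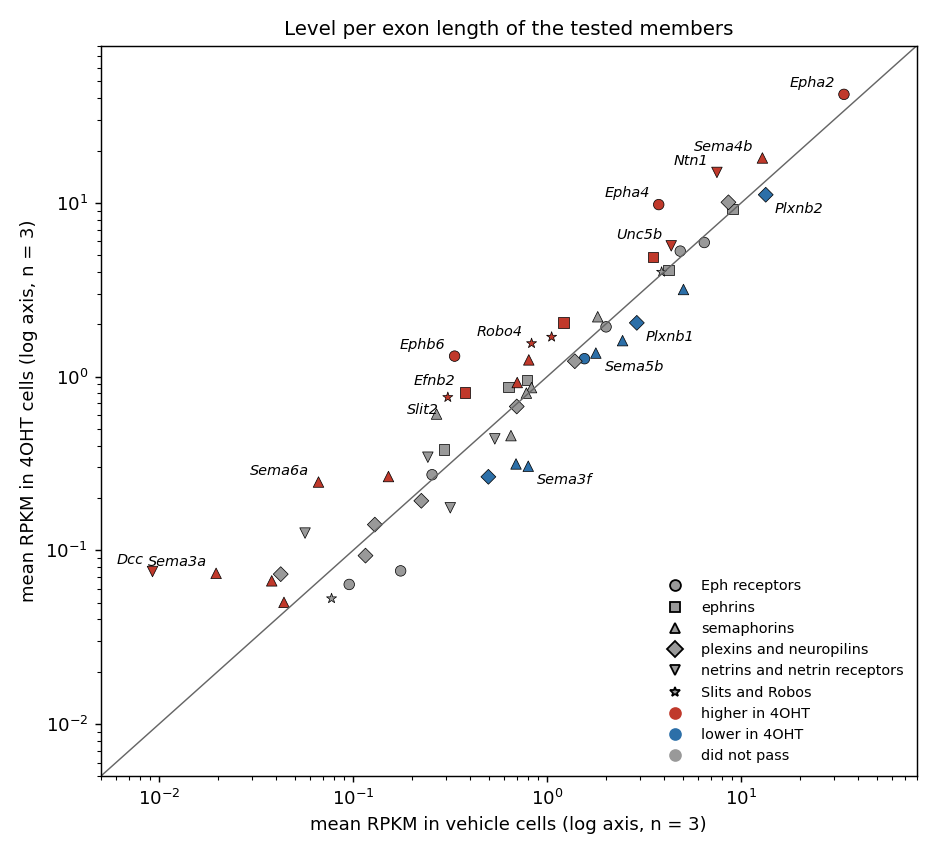
Mean RPKM of the tested guidance genes in 4OHT cells (vertical, log axis) against vehicle cells (horizontal, log axis), n = 3 each, with symbols by family, red for rises, blue for falls, grey for genes that did not pass and a line of equal levels. Epha2 lies at the top at 42.1 RPKM in 4OHT cells and 33.8 RPKM in vehicle cells, and Dcc farthest left at 0.0754 RPKM in 4OHT cells and 0.00924 RPKM in vehicle cells.

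Other genes of the guidance pathways, chiefly intracellular, were counted beside these families: of 51 listed genes 50 were tested, 9 rose, 6 fell and 35 did not pass, or 30% called beside 22.4% of all tested genes. Their median log2 fold change was 0.05. Enah, an actin regulator that acts below Robo and netrin receptors, averaged 1585 ± 55.3 CPM in 4OHT cells and 1002 ± 13.3 CPM in vehicle cells (log2 fold change 0.67, edgeR adjusted p = 3.18e-08). Abl1, a tyrosine kinase, rose by 0.33, and Chn2, which inactivates the GTPase Rac, by 0.68. Crmp1, a mediator of the response to Sema3a, averaged 33.9 ± 1.28 CPM in 4OHT cells and 50.5 ± 3.25 CPM in vehicle cells (log2 fold change -0.54, edgeR adjusted p = 7.18e-06). Mical1, an oxidoreductase that acts on actin, and L1cam, an adhesion molecule of axons, fell with log2 fold changes of -0.40 and -0.77.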

How the data were processed

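Per the labels' protocols, polyA RNA of 6 mouse ESC samples was made into libraries with a NEBNext Ultra kit. The authors deposited whole-number read counts per gene symbol; STAR, DESeq and the mm9 build are named in the submitters' processing notes without versions. Not given in the sources used here are the counting tool, the annotation and whether strand was used. Column totals differed as raw counts do, from 515388 to 55194644, so no size factor had been applied.

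Genes were selected by symbol, and the genes and lists were chosen with earlier results of these data known. Genes passing filterByExpr (minimum count 10) were tested across the whole table with edgeR 4.0.16 in R 4.3.3, with TMM factors, 1 treatment term and adjustment over 14458 genes at 0.05. Log2 fold changes use a prior count of 0.125. CPM is scaled by TMM factors, and RPKM uses exon lengths of GENCODE vM21 (GRCm38), so no coordinate of the data is given. Intervals are 95% confidence intervals of the log2 fold change and rest on the spread between these samples. The SE behind them was derived from the fold change and the F statistic of edgeR's quasi-likelihood test. Alternatives were no filter, the filter of 10 counts in replicate 1 of either group, DESeq2 size factors, DESeq2 1.42.0, limma 3.58.1 with voom and quantile normalization, a replicate block, and leaving out each library. The procedure was tested on simulated data.

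Named with full values were the 10 called genes with the smallest adjusted p in each direction, the highest gene per family by RPKM, and any called gene whose call was lost without 1 library; of the other guidance genes, at most 3 in each direction were named. Genes with no call are given by log2 fold change, and values shown beyond this rule were chosen after they were seen. Same-numbered samples deviated together over 3649 genes, least for replicate 2 (r = 0.57, 0.15 and 0.39). No label says what the numbers mark, and the cause of these correlations was not tested. They do not by themselves establish pairs. The main test leaves the replicate number out, and the replicate block is given as an alternative. No libraries agreed within sampling noise (chi-square per degree of freedom 1.18 to 18.9). The lowest values, 1.18 and 1.47, are those of the pairs with 4OHT replicate 2, where few counts weaken this check. No near-identical copies (95% identity, blastn 2.17.0) were found for the guidance genes.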

Additional observations from a re-analysis of the deposited data

How the results depend on the processing

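Of the 29 calls, all 29 kept their sign under the 13 alternatives, 9 were called under all 12 planned ones, and 21 kept the call in all 6 fits without 1 library. Leaving out 1 library gave 16 to 20 rises and 6 to 9 falls, with 0 to 2 falls of Eph receptors, 5 to 8 rises of semaphorins (5 without vehicle replicate 1) and 4 to 12 rises of other guidance genes (4 without vehicle replicate 2). With the replicate number as a block, 22 guidance genes rose and 9 fell: the 29 kept their calls and Robo1 and Efna4 were added, and over all genes 2115 rose and 1958 fell. DESeq2 called 8 guidance genes higher and 1 lower (553 and 397 of all genes), with 1 ephrin and 1 semaphorin higher, 1 semaphorin, 0 Eph receptors and 0 plexins lower, and 2 other guidance genes higher and 1 lower. Voom with quantile normalization called 15 guidance genes higher and 4 lower (1120 and 968 of all genes), with 5 semaphorins higher, 3 semaphorins, 0 Eph receptors and 1 plexin lower, and 5 other guidance genes higher and 3 lower. DESeq2 without 4OHT replicate 2, chosen after seeing the data, called 24 guidance genes, 23 of them among the 29 (1291 higher and 1131 lower of all genes), with 5 semaphorins higher and 0 Eph receptors lower. In Slits and Robos the calls were 4 of 5 with the block and 2 of 5 in DESeq2. The cause of these differences between tools was not tested. DESeq2 size factors in edgeR and both other filters on low counts kept all 29 calls. Depth limits the low genes: 4OHT replicate 2 holds 515388 counts, and Sema3b, Sema3d, Sema3f and Sema5a had no count there.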
